A study of Sus scrofa with 12 samples.

Results

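The insulin-like growth factor (IGF) axis was examined in the oxyntic mucosa, the part of the stomach lining that secretes acid, of 12 piglets at 2 weeks of age. Its members were the array features whose only gene symbol in the platform annotation was IGF1, IGF2, IGF1R, IGF2R or IGFBP followed by a digit. Of the 11 genes searched, 8 were found among 10882 named genes: IGF1, IGF1R, IGFBP1, IGFBP3, IGFBP4, IGFBP5, IGFBP6 and IGFBP7. Each of the 8 had 1 feature. IGF2, IGF2R and IGFBP2 were not analysed here.

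The 6 CA piglets (complex association) and the 6 SA piglets (simple association) were (Great York x Pietrain) x Dalland crosses obtained by caesarean delivery and fed artificially. All were given a simple starter microbiota of Lactobacillus amylovorus, Clostridium glycolicum and Parabacteroides spp. from day 1 to day 3 of age. On days 3 and 4 the CA piglets were given diluted feces of an adult sow, and the SA piglets a placebo. RNA of each piglet was hybridized on 1 array. The sample labels name colostrum as the first feed and separate rooms for the treatments, whereas the methods name sow serum and pens or rooms shared by both groups. The labels also describe a perfusion of jejunal loops at a later age, which does not belong to gastric samples of this age. The methods state that the groups were balanced for litter, body weight and gender, but none of these was labelled per piglet, and their part in any difference was not tested.

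IGF1 and IGF2 are secreted peptides that promote growth and survival of cells through IGF1R, a receptor tyrosine kinase related to the insulin receptor. IGF1 is made in the liver under growth hormone and also locally, by stromal cells of many tissues. The IGF binding proteins hold the peptides in serum or matrix, and proteases that cut the binding proteins set the peptides free. IGF1 and IGFBP5 also belong to a gene set that the study compiled as typical of the oxyntic mucosa.

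The arrays were of gastric corpus as labelled. ATP4A and ATP4B, which together form the gastric proton pump, were brighter than 99.9% and 99.7% of all features, and levels of different features are set side by side only to describe the tissue. Of 9 measured markers of other gut regions, SI, FABP2, CDX1, CDX2, APOA4 and PDX1 were brighter than 2.13% to 28.9% of features. GAST, the gastrin gene of the pyloric mucosa, was brighter than 54.9%, CPA1, a pancreatic carboxypeptidase, than 78.8%, and VIL1, villin of the intestinal brush border, than 94.8%. The median intensity of an array ranged between 55.6 and 57.6. The array of CA piglet 4 stood farthest out on the leading principal component (26.3% of the variance), and limma gave it the smallest weight of all arrays (0.267). In CA as against SA piglets, smooth muscle markers averaged lower for 7 of 7 measured genes and endothelium markers higher for 7 of 7, with 0 of the 14 at an unadjusted p under 0.05 from limma. Fibroblast and stroma markers averaged lower for 7 of 9 (0 at that p) and leukocyte markers for 7 of 8 (1 higher at that p). Over all genes 52.6% averaged higher in CA, and 3.28% had an unadjusted p under 0.05. In these bulk samples, fewer cells of a type and less RNA per cell cannot be told apart.

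None of the 8 genes differed between the CA and the SA piglets beyond the spread between piglets. In CA as compared to SA, 5 averaged higher (IGF1, IGF1R, IGFBP3, IGFBP4 and IGFBP5) and 3 lower (IGFBP1, IGFBP6 and IGFBP7). Their log2 differences lay between -0.039 and 0.23, with a median of 0.076. Over all 10882 genes the median was 0.0061, and 52.6% of genes averaged higher in CA. From limma with Benjamini-Hochberg adjustment, 0 of the 8 genes had an adjusted p under 0.05 (adjusted p = 0.999 for each), against 0% of all genes. At an unadjusted p under 0.05 the count was again 0 of 8, against 3.28% of all genes (2.06% higher and 1.22% lower in CA). For 0 of the 8 genes were the groups free of overlap, which held for 0.129% of all genes.

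**Figure D1:**
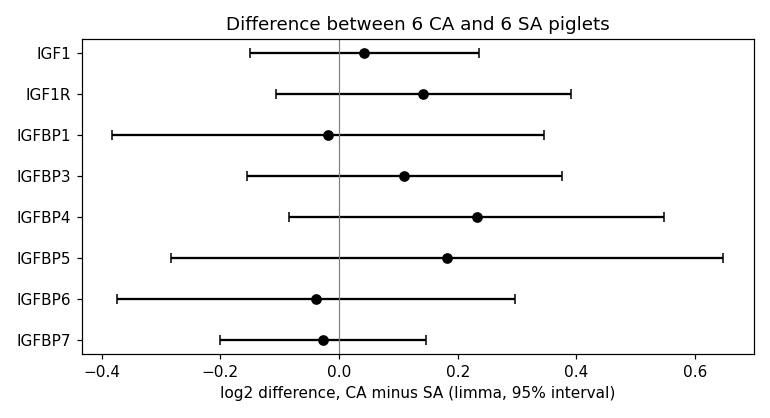
Log2 difference of CA minus SA for the 8 IGF axis genes, with its 95% interval from limma on the horizontal axis (n = 6 CA and 6 SA piglets). Every interval includes 0, and the widest is that of IGFBP5, between -0.28 and 0.65.

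IGF1, the growth factor itself, had log2 intensities between 8.59 and 9.00 in the CA piglets (median 8.85), against 8.55 to 9.07 in the SA piglets (median 8.72). The range of the SA piglets enclosed that of the CA piglets, and 5 of 6 CA piglets lay above the SA median. The means were 8.82 ± 0.14 in CA and 8.77 ± 0.18 in SA (SD, n = 6 each), a log2 difference of 0.043 (standard error 0.090, 95% interval -0.15 to 0.24). The two-sided exact permutation test over 924 splits of the piglets gave p = 0.662. On the linear scale the interval ran between 0.901-fold and 1.18-fold. The difference was -0.0017 without SA piglet 10, whose IGF1 was the lowest of all piglets.

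IGF1R, the receptor, had log2 intensities between 8.18 and 8.83 in the CA piglets (median 8.35), against 8.14 to 8.59 in the SA piglets (median 8.26). CA piglets 4 and 1 held the 2 highest values, and the other 4 CA piglets lay within the SA range. The log2 difference was 0.14 (standard error 0.12, 95% interval -0.11 to 0.39; exact permutation p = 0.271). Without CA piglet 4, the array that stood apart, it was 0.065.

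**Figure D2:**
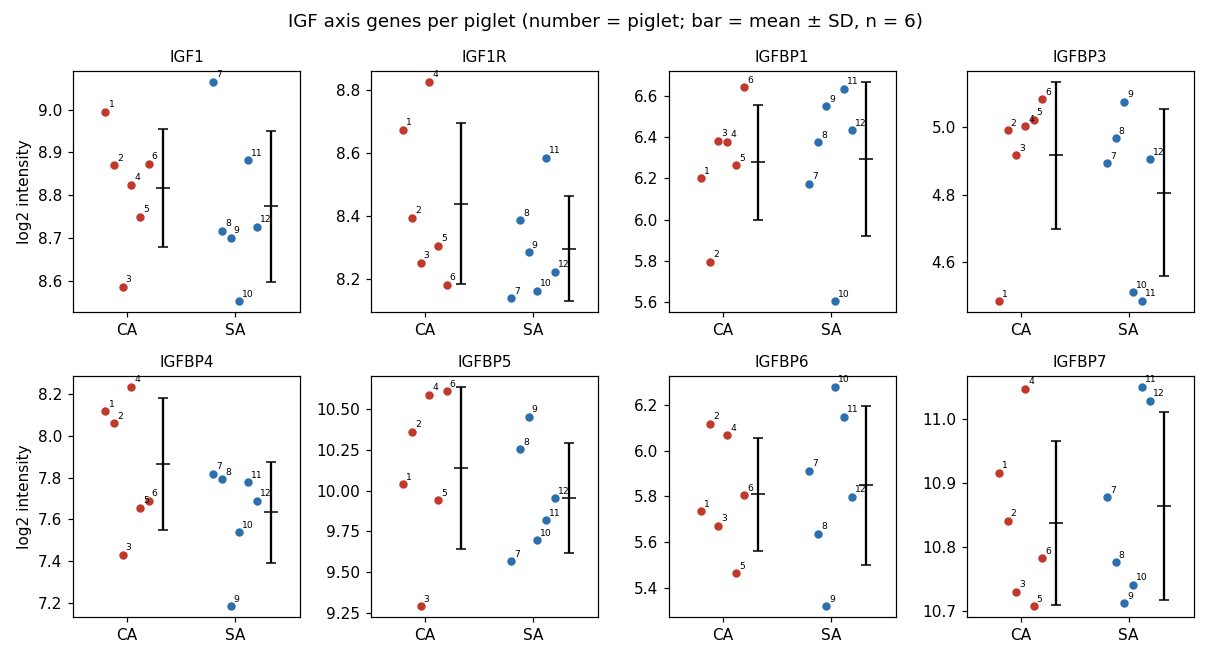
Log2 intensity (vertical axis) of each IGF axis gene in each CA piglet (left) and SA piglet (right), numbered by piglet, with the mean ± SD of 6 piglets as a bar. The groups overlap in all 8 panels, and IGFBP5 has the widest range, between 9.29 and 10.61. Each panel has its own axis range, which does not start at 0.

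IGFBP5, a binding protein that adheres to the extracellular matrix, varied most between piglets among the 8 genes. Its log2 intensities were between 9.29 and 10.61 in the CA piglets (median 10.20), against 9.56 to 10.45 in the SA piglets (median 9.89). CA piglets 6 and 4 were the highest of all and CA piglet 3 the lowest, so that the CA range enclosed that of SA. The within-group SD of 0.43 exceeded that of 96.9% of genes, whereas the median gene had 0.16. The means were 10.14 ± 0.50 in CA and 9.96 ± 0.34 in SA (SD, n = 6 each), a log2 difference of 0.18 (standard error 0.22, 95% interval -0.28 to 0.65; exact permutation p = 0.478). It was 0.35 without CA piglet 3, at an unadjusted p = 0.0646 from limma, 0.087 without CA piglet 6 and 0.092 without CA piglet 4.

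IGFBP4, a binding protein that restrains IGF action until it is cut, had the largest mean difference of the 8. It had log2 intensities between 7.43 and 8.23 in the CA piglets (median 7.88), against 7.18 to 7.82 in the SA piglets (median 7.73). CA piglets 1, 2 and 4 lay above every SA piglet, and the other 3 CA piglets lay below the SA median. The log2 difference was 0.23 (standard error 0.15, 95% interval -0.08 to 0.55; exact permutation p = 0.182), which is 1.17-fold. Without CA piglet 3 it was 0.32 at an unadjusted p = 0.0379 from limma, which 530 of all genes reached in that comparison at the threshold of 0.05. Without CA piglet 4 it was 0.16.

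IGFBP3, the main IGF carrier in serum, was dim, brighter than 35.9% of features. Its log2 intensities were between 4.48 and 5.08 in the CA piglets (median 5.00), against 4.49 to 5.08 in the SA piglets (median 4.90). CA piglet 1 and SA piglets 10 and 11 had the 3 low values, and the other 9 piglets lay between 4.89 and 5.08. The log2 difference was 0.11 (standard error 0.12; exact permutation p = 0.355). IGFBP1, a binding protein of the liver that insulin lowers, had log2 intensities between 5.79 and 6.64 in the CA piglets (median 6.32), against 5.61 to 6.63 in the SA piglets (median 6.40). Its log2 difference was -0.018 (standard error 0.17; exact permutation p = 0.935). IGFBP3 and IGFBP1 are next to each other in the RefSeq gene table of Sscrofa11.1, and their levels had a Pearson r of 0.30 over the 12 piglets (permutation p = 0.349).

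IGFBP6, which binds IGF2 in preference to IGF1, had log2 intensities between 5.46 and 6.12 in the CA piglets (median 5.77), against 5.32 to 6.28 in the SA piglets (median 5.85). The SA range enclosed that of CA, and the log2 difference was -0.039 (standard error 0.16; exact permutation p = 0.820). IGFBP7, a secreted protein of vessels and stroma with low affinity for IGFs, was brighter than 98.8% of features and had the narrowest range. Its log2 intensities were between 10.71 and 11.05 in the CA piglets (median 10.81), against 10.71 to 11.05 in the SA piglets (median 10.83). The log2 difference was -0.027 (standard error 0.081, 95% interval -0.20 to 0.15; exact permutation p = 0.738).

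Among proteins that carry IGFs, cut their binding proteins or inhibit that cutting, 7 of 10 measured genes averaged higher in CA and 3 lower, with a median log2 difference of 0.14. At an unadjusted p under 0.05 from limma, 2 of the 10 were higher and 0 lower, against 2.06% and 1.22% of all genes, and 0 passed over all genes. The list was chosen with earlier results of these data known, so this count is a description and no test of the list. PAPPA, the metalloproteinase that cuts IGFBP4 and IGFBP5, had log2 intensities between 5.83 and 6.48 in the CA piglets (median 6.14), against 5.61 to 6.11 in the SA piglets (median 5.73). Of the 6 CA piglets, 4 lay above every SA piglet. The log2 difference was 0.36 (standard error 0.12, unadjusted p = 0.00816, adjusted p = 0.999 from limma). PAPPA2, which cuts IGFBP3 and IGFBP5, was at 4.74 to 5.94 in the CA piglets, against 4.65 to 4.88 in the SA piglets. Its log2 difference of 0.30 (standard error 0.16) was 0.12 without CA piglet 4, the piglet at 5.94. STC2, a stanniocalcin that inhibits PAPPA, was at 0.17 (standard error 0.083).

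ADAMTS1, a protease of the extracellular matrix, had the largest difference of that list. It had log2 intensities between 6.75 and 7.65 in the CA piglets (median 7.35), against 6.52 to 6.89 in the SA piglets (median 6.66). All CA piglets but piglet 5 lay above every SA piglet. The log2 difference was 0.60 (standard error 0.13, unadjusted p = 0.000408 from limma), and it too had an adjusted p of 0.999. IGFALS, the subunit that completes the serum complex of IGF1 and IGFBP3, was brighter than 39.3% of features and at -0.079 (standard error 0.12).

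**Figure D3:**
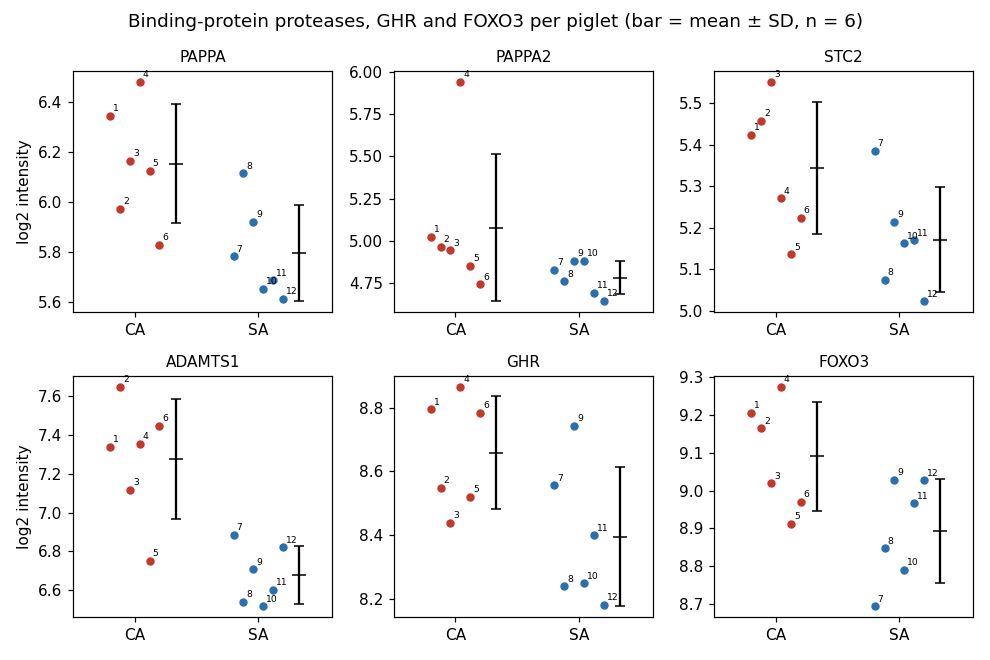
Log2 intensity (vertical axis) of PAPPA, PAPPA2, STC2, ADAMTS1, GHR and FOXO3 in each CA piglet (left) and SA piglet (right), numbered by piglet, with the mean ± SD of 6 piglets as a bar. ADAMTS1 lies between 6.75 and 7.65 in CA and between 6.52 and 6.89 in SA, and PAPPA2 has a single high value of 5.94 in CA piglet 4. Axis ranges differ between panels and do not start at 0.

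Of 12 measured genes of the growth hormone axis, 10 averaged higher in CA and 2 lower (median log2 difference 0.052). Only GHR, 1 of the 12, had an unadjusted p under 0.05 from limma, against 3.28% of all genes, and 0 passed over all genes. GHR, the growth hormone receptor, had log2 intensities between 8.44 and 8.86 in the CA piglets (median 8.67), against 8.18 to 8.74 in the SA piglets (median 8.32). The groups overlapped, with SA piglet 9 above 3 of the CA piglets. Its log2 difference was 0.26 (standard error 0.11, unadjusted p = 0.0285, adjusted p = 0.999 from limma). The unadjusted p lay between 0.0595 and 0.0679 without CA piglet 1, 4 or 6 or SA piglet 8, 10 or 12. CISH and SOCS2, feedback inhibitors that growth hormone induces, were at 0.22 (standard error 0.14) and 0.15 (standard error 0.094). GHRHR, the receptor of the hypothalamic releasing hormone, was dim and at 0.080 (standard error 0.070).

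Downstream of the receptor, 15 of 24 measured genes of the insulin receptor, adaptors and kinases averaged higher in CA and 9 lower, with a median of 0.024. The median was -0.0025 without SA piglet 11. Of these 24, 1 had an unadjusted p under 0.05 from limma, a share near the 3.28% of all genes, and 0 passed over all genes. That gene was FOXO3, a transcription factor that AKT keeps out of the nucleus, with log2 intensities between 8.91 and 9.27 in the CA piglets (median 9.09), against 8.69 to 9.03 in the SA piglets (median 8.91). Its log2 difference was 0.20 (standard error 0.082, unadjusted p = 0.0301, adjusted p = 0.999 from limma). The unadjusted p lay between 0.0544 and 0.0747 without CA piglet 1, 2 or 4 or SA piglet 7, 8 or 10. IRS1, the adaptor that docks on the receptor, was at 0.20 (standard error 0.12). PTPN1, a phosphatase that quenches insulin signals, was at 0.14 (standard error 0.079) and SHC1, an adaptor to the RAS route, at 0.12 (standard error 0.078).

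The proteins that bind IGF messenger RNAs or switch on IGF2 transcription averaged higher in CA for 5 of 5 measured genes, against 52.6% of all genes. Their median was 0.056, with 0 at an unadjusted p under 0.05 from limma, against 3.28% of all genes. IGF2BP1 was at 0.11 (standard error 0.083), IGF2BP2 at 0.092 (standard error 0.11), and PLAG1, a transcription factor of IGF2, at 0.056 (standard error 0.094). HMGA2, a chromatin protein of growing tissue, was at 0.043 (standard error 0.17) and at -0.077 without CA piglet 4. LIN28B was near 0, at 0.0030 (standard error 0.053). IGF2BP1 was brighter than 15.4% of features, HMGA2 than 48.5% and LIN28B than 7.44%.

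The 8 genes differed from each other in how they varied between piglets. Over the 28 pairs, Pearson r of log2 intensities across the 12 piglets was taken, and 4 pairs had a permutation p under 0.05, with 0 after Benjamini-Hochberg adjustment over the pairs. IGF1 and IGFBP4 had an r of 0.61 (permutation p = 0.0323, adjusted p = 0.262) and a Spearman rho of 0.71 (permutation p = 0.0127, adjusted p = 0.188). It was 0.74 within the CA and 0.52 within the SA piglets, and 0.70 without SA piglets 7 and 10, the farthest from the median of IGF1. IGF1R and IGFBP4 had an r of 0.69 (permutation p = 0.0133, adjusted p = 0.262) and a rho of 0.55 (permutation p = 0.0664, adjusted p = 0.310), at 0.86 within CA and 0.20 within SA. That r was 0.30 without CA piglets 4 and 1, the farthest in IGF1R, and lay between 0.54 and 0.78 with any single piglet left out. IGFBP4 and IGFBP7 had an r of 0.62 (permutation p = 0.0296, adjusted p = 0.262) and a rho of 0.70 (permutation p = 0.0135, adjusted p = 0.188), at 0.90 within CA and 0.59 within SA. That r was 0.41 without SA piglet 9 and CA piglet 4. IGF1R and IGFBP7, the remaining pair of the 4, had an r of 0.60 (permutation p = 0.0374, adjusted p = 0.262) and a rho of 0.38 (permutation p = 0.220, adjusted p = 0.576), at 0.93 within CA and 0.41 within SA. That r was 0.39 without CA piglets 4 and 1. IGF1 and IGFBP5 had an r of 0.19 (permutation p = 0.555) and a rho of 0.13 (permutation p = 0.702), with 0.68 within CA and -0.41 within SA.

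IGFBP5 was high in the piglets with high levels of oxyntic epithelium markers. The level of a list was taken as the mean of the log2 intensities of its genes, each centred on its own mean over the piglets. Of 18 epithelial markers listed 13 were measured, of which 12 averaged higher in CA, against 52.6% of all genes. At an unadjusted p under 0.05 from limma 3 of the 13 were higher, against 2.06% of all genes, and 0 passed over all genes. These were KCNE2, ATP4A and ATP4B, with exact permutation p of 0.0325, 0.0584 and 0.0801. The study had already listed these genes as enriched in CA at 2 weeks of age, so their count is no independent result. The level of the 13 markers lay between -0.13 and 0.24 in the CA piglets, against -0.36 to 0.38 in the SA piglets. SA piglet 9, which had the highest IGFBP5 of its group, also had the highest epithelial level of all. The r of IGFBP5 with this level was 0.76 (permutation p = 0.0051, adjusted p = 0.0917 over 64 relations) and rho was 0.85 (permutation p = 0.0008, adjusted p = 0.0512). It was 0.92 within the CA piglets, 0.85 within the SA piglets, and 0.79 without CA piglets 3 and 6. Neither measure passed after adjustment.

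The 5 markers of division (TOP2A, CDK1, CCNB2, CCNA2 and AURKA), of 14 listed, averaged lower in CA, whereas 52.6% of all genes averaged higher. Of these 5, 0 had an unadjusted p under 0.05 from limma, against 3.28% of all genes. They had a level between -0.30 and 0.33 in the CA piglets, against -0.38 to 0.30 in the SA piglets. No piglet lay between -0.19 and 0.06, and 4 CA piglets and SA piglet 9 were on the low side. These piglets all had a positive epithelial level, and of the others only CA piglet 5 did. The epithelial and division levels thus largely ran opposite, and their relations to IGFBP5 are not separate results. The r of IGFBP5 with the division level was -0.77 (permutation p = 0.0054, adjusted p = 0.0917), and rho was -0.73 (permutation p = 0.0085, adjusted p = 0.149). Within the groups it was -0.86 in CA and -0.63 in SA, and it was -0.72 without CA piglets 3 and 6. With any single piglet left out it lay between -0.82 and -0.72. With the endothelium markers the r of IGFBP5 was 0.64 (permutation p = 0.0223, adjusted p = 0.237) and rho 0.69 (permutation p = 0.0158, adjusted p = 0.156). It was 0.56 within CA, 0.84 within SA and 0.85 without CA piglets 3 and 6. With the smooth muscle and fibroblast markers r was -0.21 (permutation p = 0.524) and 0.014 (permutation p = 0.965). The epithelial level rose and the division level fell with IGFBP5, and their part in its spread was not tested.

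**Figure D4:**
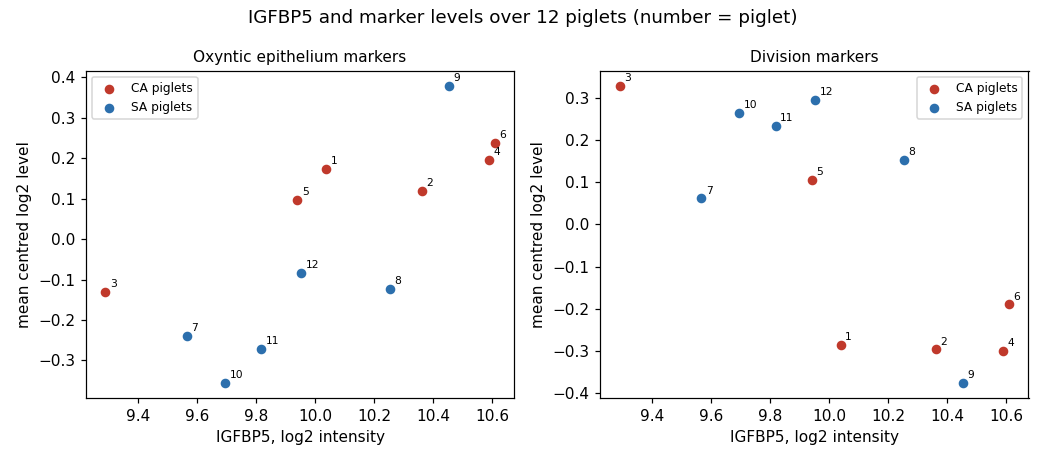
Level of the oxyntic epithelium markers (left) and of the division markers (right), as mean centred log2 intensity, against the log2 intensity of IGFBP5 in each of the 6 CA and 6 SA piglets, numbered by piglet. Epithelial markers run upward with IGFBP5 (r = 0.76), and division markers downward (r = -0.77), with no piglet between -0.19 and 0.06 in the division level. The epithelial and division levels themselves largely ran opposite to each other.

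The largest r of IGF1 were with the stromal and nerve lists. Its r was 0.62 with the fibroblast and stroma markers (permutation p = 0.0305, adjusted p = 0.237), with a rho of 0.64 (permutation p = 0.0309, adjusted p = 0.198). That r was 0.83 within CA, 0.62 within SA and 0.74 without SA piglets 7 and 10. With the enteric nerve and glia markers it was 0.74 (permutation p = 0.0057, adjusted p = 0.0917) and rho was 0.71 (permutation p = 0.0116, adjusted p = 0.149), with 0.77 within CA, 0.81 within SA and 0.70 without those 2 piglets. The 5 nerve and glia markers were dim, brighter than 28.8% to 48.7% of features. UCHL1 weighed most in their unscaled mean, with an SD of 0.65 in CA and 0.88 in SA. The largest SD among the other markers was 0.29 (RET in CA). The part of UCHL1 in this relation was not tested. With the oxyntic epithelium markers the r of IGF1 was 0.18 (permutation p = 0.582). That r was 0.84 within CA (exact permutation p = 0.0514, adjusted p = 0.338) and -0.16 within SA (exact permutation p = 0.701). The difference between IGF1 and IGFBP5 in these relations was not tested.

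IGFBP3 ran against the smooth muscle markers, whose level lay between -0.38 and 0.45 in the CA piglets, against -0.67 to 0.69 in the SA piglets. The r was -0.74 (permutation p = 0.0038, adjusted p = 0.0917) and rho -0.80 (permutation p = 0.0024, adjusted p = 0.0774), with -0.78 within CA and -0.74 within SA. Without CA piglet 1 and SA piglet 11, the 2 lowest in IGFBP3, it was -0.40, and with any single piglet left out it lay between -0.82 and -0.63. IGFBP7 had an r of 0.62 with the smooth muscle markers (permutation p = 0.0283, adjusted p = 0.237) and a rho of 0.56 (permutation p = 0.0634, adjusted p = 0.323), at 0.31 within CA, 0.80 within SA and 0.67 without SA piglet 11 and CA piglet 4. Of the 64 relations, 11 had a permutation p of r under 0.05 and 0 passed after adjustment. IGFBP1 had none under 0.05, with r between -0.23 and 0.33 over the 8 marker lists. IGFBP6 also had none, and its strongest was an r of -0.53 with the oxyntic epithelium markers (permutation p = 0.0759). That r was 0.35 within the CA piglets (exact permutation p = 0.521) and -0.92 within the SA piglets (exact permutation p = 0.00278, adjusted p = 0.178). With the endothelium markers the r of IGFBP6 was 0.90 within CA (exact permutation p = 0.0194, adjusted p = 0.338) and -0.87 within SA (exact permutation p = 0.0278, adjusted p = 0.347). The difference between the groups in these relations was not tested.

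**Figure D5:**
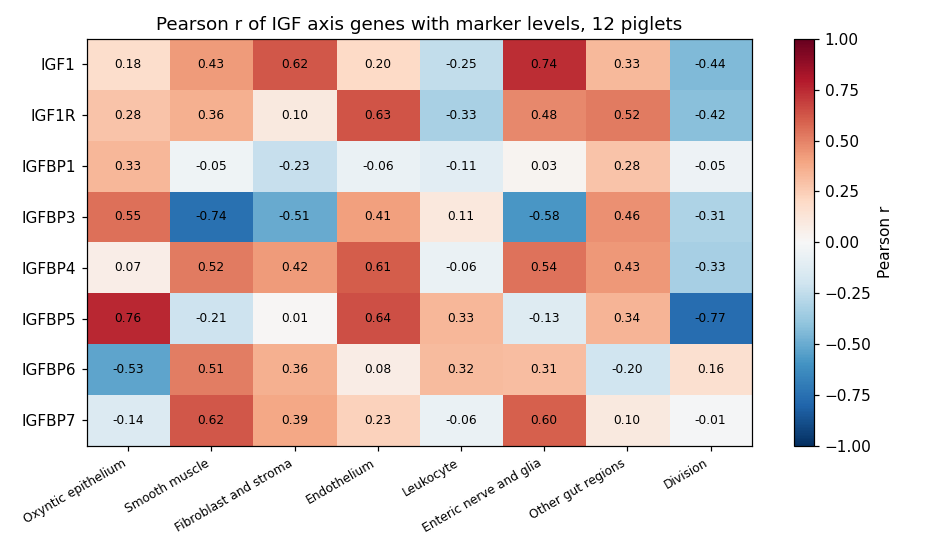
Pearson r over 12 piglets between the log2 intensity of each IGF axis gene (rows) and the level of each of 8 marker lists (columns), on a color scale between -1 and 1. IGFBP5 has its strongest values with division (-0.77) and oxyntic epithelium (0.76), IGF1 with enteric nerve and glia (0.74), and IGFBP3 with smooth muscle (-0.74).

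The genes most like each member were those of the highest Pearson r over the 12 piglets among the other 10881 genes. They were chosen as the highest of many values and are given as a description, with no test. For IGFBP5 these were TBC1D9 (0.93), SORBS3, an adaptor of cell adhesions (0.92), SLC35G1 (0.92), TMEM211 (0.92) and RAP1GAP2 (0.91), and 80 genes had an r above 0.8. For IGF1 only 18 genes did, led by LOC100625127 (0.90), COL19A1, a collagen (0.89), RNF180 (0.89), SYN3, a synapsin of nerve endings (0.88), and HEY2, a target of Notch signaling (0.85). All 5 genes most like IGF1 were dim, brighter than 10.3% to 48.4% of features, whereas those most like IGFBP5 were brighter than 68.2% to 93.6%.

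Of the other members, IGF1R was most like RFTN1 (0.90) and PRICKLE1, a protein of planar cell polarity (0.89), and IGFBP4 was most like ADAM8, a metalloproteinase of leukocytes (0.91), and POU6F1 (0.89). IGFBP3 was most like DACH1 and PRSS8, a serine protease of epithelia (0.90 each), with a rho of 0.64 for DACH1 and 0.80 for PRSS8. IGFBP7 was most like RNF11 (0.90) and IFT43 (0.89). For IGFBP6 the closest were CCT8L2 (0.87) and ITGAM, an integrin of myeloid cells (0.85), and for IGFBP1 they were SLC16A10, a transporter of aromatic amino acids (0.83), and LOC100513767 (0.81). Only 6 genes had an r above 0.8 with each of IGFBP1, IGFBP3 and IGFBP6.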

How the data were processed

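The authors hybridized total RNA of each piglet on an Affymetrix Porcine Gene 1.1 ST array and processed the arrays by Robust Multichip Analysis. The intensities deposited are linear, background-corrected, quantile-normalized and summarized per feature by the authors, and were converted to log2 here. The RNA kit differs between labels and methods. Columns of sample values not used number 0. The number of arrays limits the precision. Groups came from the sample labels, and nothing beyond piglet numbers identifies litters.

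Of 27558 features, 11939 had 1 symbol, 416 several, and 15203 were unnamed here. The brightest feature was kept for the 958 genes with several. All 10882 genes were fitted with limma 3.58.1 (R 4.3.3, lmFit and eBayes, Benjamini-Hochberg adjustment, no filter, no covariate), which was tested on simulated data. The exact permutation test used 924 splits, with a smallest possible p of 0.00216. Relations used 100000 permutations, exact within a group (Python 3.11.15, numpy 2.4.6, pandas 2.3.3, scipy 1.17.1). Figures used matplotlib 3.10.9.

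Named genes were every measured member, up to 4 genes of smallest p per other list, and the 5 genes most like IGF1 and IGFBP5 or 2 most like the others. IGFALS and the tissue and division marker genes are named beside them for their role, and LIN28B to complete its list, chosen after their values were seen. The members and lists were chosen with earlier results of these data known. Alternatives were the mean of all features, leaving out dim features, a further quantile normalization, centring on the median, trended moderation, array weights, linear values and leaving out each piglet. Rank correlation and leaving out the 2 farthest piglets were added after seeing the data.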

Additional observations from a re-analysis of the deposited data

Results flagged for a closer look

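In 72 groups of 6 piglets, over 36 results, the gap between a piglet and its nearest neighbour was set against the range of the group, and 5 groups held a piglet far from the others. Chance gives about 1 in 20. For IGFBP3, CA piglet 1 had a log2 intensity of 4.48, with the next CA piglet at 4.92. CA piglet 4, the array that stood apart, was far above the other CA piglets for PAPPA2 (5.94, next 5.02) and for SHC1 (9.87, next 9.54). SA piglet 9 was far from its group in the marker levels that rose or fell with IGFBP5, with the oxyntic epithelium markers at 0.38 (next -0.08) and the division markers at -0.38 (next 0.06).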

How the results depend on the processing

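No analysis paired by litter or pen was possible, because neither was labelled per piglet. Under all alternatives run, 0 genes had an adjusted p under 0.05. The number at an unadjusted p under 0.05, 357 as reported, was 193 without dim features, 698 with array weights and 241 to 671 with 1 piglet left out, the highest without SA piglet 9. Of the 8 IGF axis genes, 0 to 1 reached that p with 1 piglet left out (IGFBP4, without CA piglet 3), and 5 to 8 averaged higher in CA, the highest without SA piglet 11. With 1 piglet left out, the log2 difference of IGF1 ranged between -0.0017 and 0.10, that of IGFBP1 between -0.16 and 0.079, that of IGFBP6 between -0.15 and 0.047, and that of IGFBP7 between -0.069 and 0.010. HMGA2 ranged between -0.077 and 0.16. The lowest value was 0.047 for IGF2BP1 (without CA piglet 3), 0.013 for PLAG1 (without CA piglet 1), and, without CA piglet 4, 0.025 for IGF2BP2, 0.027 for GHRHR, 0.055 for SHC1 and 0.12 for PAPPA2. IGF1R (0.065 to 0.20), IGFBP3 (0.046 to 0.20), IGFBP4 (0.14 to 0.32) and IGFBP5 (0.087 to 0.35) kept their direction under every alternative run. With 1 feature per gene, the mean of all features could not change these differences. Neither could the filter on dim features or trended moderation, which leave the difference of a kept gene as it is. The filter on dim features left out IGFBP3, PAPPA2, STC2, GHRHR, IGF2BP1 and HMGA2, so they have no value there. Of the relations to marker levels, 3 passed after adjustment without the 2 farthest piglets: IGFBP3 with oxyntic epithelium, IGFBP4 with fibroblasts and stroma, and IGFBP5 with endothelium. Over all 12 piglets their r were 0.55, 0.42 and 0.64 (adjusted permutation p = 0.324, 0.436 and 0.237). For IGFBP3 it was 0.0048 within CA. Without CA piglet 1 and SA piglet 11, SA piglet 10 was the only low IGFBP3 value left, at 4.51, with the others between 4.89 and 5.08. The causes of these changes were not tested.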
